A study of Mus musculus with 4 samples.

Results

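TCF1, encoded by Tcf7, and LEF1, encoded by Lef1, are related HMG box transcription factors of T cells, and both genes held peaks of a streptavidin pull-down of PLZF in mouse thymocytes. Of the peaks in the NKT list, 9 of 4246 lay at these 2 genes, 5 at Tcf7 and 4 at Lef1. Of the peaks in the PLZF-transgenic list, 11 of 5198 did, 8 at Tcf7 and 3 at Lef1. A peak belonged to a gene when its midpoint lay in the RefSeq gene body or within 50 kb on either side. In windows of the same kind, 1.0% of protein-coding genes had at least as many NKT peaks as Tcf7 and 2.26% as many as Lef1. As many PLZF-transgenic peaks as at Tcf7 were found for 0.288% of genes, and as many as at Lef1 for 6.18%. The 2 genes were chosen by name, with their peak counts in these lists known, so these counts and shares are a description and support nothing.

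The NKT library came from thymocytes of PLZF tg, BirA tg and Valpha14 tg mice, and the PLZF-transgenic library from thymocytes of PLZF tg and BirA tg mice, all with a C57BL/6 background. BirA is a bacterial biotin ligase, which attaches the biotin that streptavidin beads hold, and Valpha14 is the alpha chain in the receptor of invariant natural killer T cells. PLZF, a zinc finger protein with a BTB domain that directs the innate-like program of natural killer T cells, is thus carried as a transgene in both groups. The promoters of the transgenes, the ages of the mice, whether animals were pooled and whether natural killer T cells were sorted are stated neither in the labels nor in the lists, and peak lists cannot check a cell type against its markers. Each group had 1 ChIP library, the 2 input libraries were not analysed here, and no library from mice lacking the PLZF transgene was used here, so a peak need not be a PLZF site. Depth is unknown, and there is no replicate error for any value below.

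In the thymus, TCF1 is switched on by Notch signalling in early progenitors and is needed for T lineage commitment, and LEF1 overlaps with it in function. Both bind the same DNA motif through the HMG box. They activate genes with beta-catenin, the end point of canonical Wnt signalling, and repress genes with TLE co-repressors. Both are also needed for the development or expansion of invariant natural killer T cells.

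Tcf7 (gene ID 21414) runs on the minus strand of chromosome 11 from 52246527 to 52283383, mm10, so upstream of it means higher coordinates. Its window spanned 136.9 kb and also held the protein-coding genes Skp1, a ubiquitin ligase subunit gene whose body overlaps that of Tcf7 by 332 bp, and Olfr1371, an olfactory receptor gene. The lncRNA gene Gm30217 lay 24.1 kb upstream of Tcf7. Lef1 (gene ID 16842) runs on the plus strand of chromosome 3 from 131110297 to 131224357. Its window spanned 214.1 kb and also held Hadh, a gene of mitochondrial fatty acid oxidation, and the lncRNA gene Gm36603. The gene table used holds no exons, so peaks inside a gene are given as inside, without a class.

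No listed promoter of either gene was covered by a peak. The promoter table held 2 starts for Tcf7 and 4 for Lef1, each from 250 bases before to 50 bases after a start, and 0 of these were overlapped in either list. Of all 32851 listed promoters, 1.7% were covered by an NKT peak and 2.33% by a PLZF-transgenic peak. The promoter of each gene that lay nearest to a peak is given here as the 250 bases before the start, 5′ to 3′ on the gene's strand (RefSeq, GRCm38.p6, the assembly that mm10 names). Capitals mark the TCF/LEF motif CTTTGA or its reverse complement TCAAAG. The first, at chr3:131156044-131156293 on the plus strand, precedes a start inside Lef1, and its promoter was 1201 bp from an NKT peak and 2813 bp from a PLZF-transgenic peak. The other, at chr11:52282596-52282845 on the minus strand, precedes a start inside Tcf7, and its promoter was 6456 bp from an NKT peak and 827 bp from a PLZF-transgenic peak.
Lef1 inner start: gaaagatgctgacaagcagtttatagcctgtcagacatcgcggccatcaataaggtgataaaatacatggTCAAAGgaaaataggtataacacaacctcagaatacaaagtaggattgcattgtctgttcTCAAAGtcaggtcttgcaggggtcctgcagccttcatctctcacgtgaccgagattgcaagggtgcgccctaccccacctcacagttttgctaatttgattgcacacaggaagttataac
Tcf7 inner start: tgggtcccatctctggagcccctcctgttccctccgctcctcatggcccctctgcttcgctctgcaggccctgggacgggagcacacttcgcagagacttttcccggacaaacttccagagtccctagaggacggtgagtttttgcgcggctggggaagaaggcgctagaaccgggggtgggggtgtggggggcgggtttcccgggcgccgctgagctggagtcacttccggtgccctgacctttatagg
The Lef1 stretch held the TCF/LEF motif at 2 places, beginning 180 and 120 bases before the start, and the Tcf7 stretch at 0. The other 3 listed promoters of Lef1 and the other listed promoter of Tcf7 also held it at 0 places, so 1 of 6 promoters had it. Of all listed promoters, 13.8% held it in the same 250 bases. The Tcf7 stretch held the GC box GGGGCGG (both strands searched), as did 21.0% of all promoters, and the ETS motif CCGGAA, as did 12.0%. Neither stretch held the RUNX motif TGTGGT (14.0% of all promoters), the E protein motif CAGGTG (17.2%) or the GATA motif AGATAA (9.99%), on either strand. The Lef1 stretch held neither GGGGCGG nor CCGGAA. Only these exact letters were searched, so other forms of a motif, such as ETS sites with other letters beside GGAA, were not counted. These matches describe letters and no binding was measured on them.

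At Tcf7, 4 of 5 NKT peaks and 4 of 8 PLZF-transgenic peaks were shared, meaning an overlap of 1 bp or more between the lists. At Lef1, 2 of 4 NKT peaks and 2 of 3 PLZF-transgenic peaks were. Over both genes that was 66.7% of NKT peaks (6 of 9, exact Clopper-Pearson 95% interval 29.9 to 92.5%, covering counting error only), against 60.7% of the whole NKT list. It was 54.5% of PLZF-transgenic peaks (6 of 11, 23.4 to 83.3%), against 45.7% of the whole PLZF-transgenic list. Both list-wide shares lay within these intervals, but the intervals are so wide that this tells little. The intervals treat peaks as independent, though some lie side by side at 1 gene, so this is no test.

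At Tcf7, the highest-scoring peak in both lists lay about 31 kb upstream, inside Gm30217. It ran from 52314020 to 52314750 in the NKT list with a score of 831, and from 52313866 to 52314817 in the PLZF-transgenic list with a score of 1759.9. The score is a value per peak that the authors deposited. It is read here within a list only, since it can grow with sequencing depth. This peak ranked 30 of 4246 by score in the NKT list and 15 of 5198 in the PLZF-transgenic list. The midpoints in the 2 lists were 43.5 bp apart, and the NKT peak lay wholly within the PLZF-transgenic one.

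A second site in both lists lay inside Tcf7, 7.8 kb downstream of the 5′ boundary in the NKT list and 7.7 kb in the PLZF-transgenic list. It was the widest site of the locus in each list. The NKT peak, from 52275113 to 52276089, was 977 bp wide with a score of 364, and the PLZF-transgenic peak, from 52275083 to 52276309, was 1227 bp wide with a score of 688. It exceeded 98.5% of NKT peaks and 98.9% of PLZF-transgenic peaks in width, and 96.1% and 97.5% in score. The NKT list held a further peak beside it, from 52274775 to 52275038 with a score of 127. That peak ended 44 bp short of the nearest PLZF-transgenic peak and was therefore not counted as shared.

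The other sites shared at Tcf7 had lower scores. One lay 26.3 kb upstream in the NKT list, with a score of 202 and a width of 409 bp, and 26.2 kb upstream in the PLZF-transgenic list, with a score of 237 and a width of 614 bp, also inside Gm30217. One lay inside Tcf7, 14.6 kb downstream of the 5′ boundary in the NKT list with a score of 70.3 and 14.7 kb in the PLZF-transgenic list with a score of 91.5. This last site was below the median score of each list, 73.8 in the NKT list and 110.8 in the PLZF-transgenic list.

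At Tcf7, 4 PLZF-transgenic peaks had no NKT counterpart, and 3 of them were among the weakest of their list. The peak 1.8 kb downstream of the 5′ boundary, from 52281409 to 52281718, had a score of 63.6, above 19.0% of its list, and was the Tcf7 peak nearest to any listed start, at 1.03 kb. The peak 14.2 kb upstream had a score of 58.2, above 13.2% of its list. The peak 58.9 kb downstream of the 5′ boundary, with a score of 59.1, lay beyond the 3′ end of Tcf7, and its nearest protein-coding gene was Skp1, 6.09 kb away. The fourth, 35.3 kb upstream at the edge of Gm30217, had a score of 129, above 56.7% of its list. Of all 995 PLZF-transgenic peaks with a score of 63.6 or less, 15.4% were shared, and whether depth set the absence of these peaks from the NKT list was not tested.

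**Figure D1:**
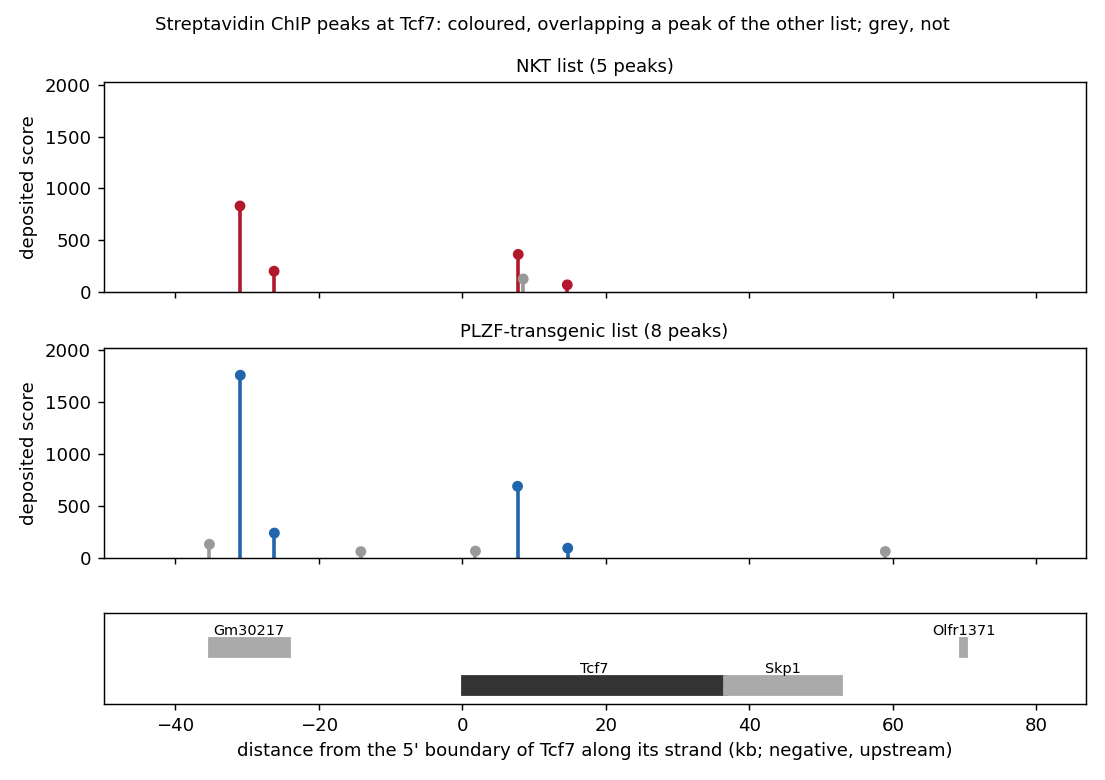
Peaks at Tcf7 in the NKT list (top) and the PLZF-transgenic list (middle), by distance from the 5′ boundary of Tcf7 in kb (negative, upstream) and deposited score, with gene bodies below. Coloured peaks overlap a peak of the other list and grey ones do not; the shared peaks stand at the same 4 places, with the highest about 31 kb upstream inside Gm30217.

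At Lef1, every peak in either list lay inside the gene, and none scored above more than 74.7% of its list. The site with the highest score in each list lay 98.4 kb downstream of the 5′ boundary in the NKT list (131208534 to 131208884) and 98.3 kb in the PLZF-transgenic list (131208334 to 131208813), in the part of the gene towards its 3′ end. Its NKT peak was 351 bp wide with a score of 124, above 74.7% of the list, and its PLZF-transgenic peak was 480 bp wide with a score of 177, above 69.9% of the list.

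The second shared site of Lef1 lay 49.0 kb into the gene in the NKT list and 49.1 kb in the PLZF-transgenic list, about 3 kb downstream of the inner start whose promoter is shown above (2.97 kb and 3.06 kb). The NKT peak, from 131159106 to 131159427, had a score of 69.3 and the PLZF-transgenic peak, from 131159157 to 131159557, a score of 92.4, both below the median of their list. The NKT list held a peak on either side of it. The one from 131157545 to 131157725 had a score of 58.5 and lay 1.34 kb from the inner start, and the one from 131159578 to 131159761 had a score of 51.5. This second peak began 20 bp beyond the end of the PLZF-transgenic peak. Near these 3 NKT peaks the PLZF-transgenic list had 1 peak, which overlapped only the middle one. The NKT peak 1.34 kb from the inner start was 1431 bp away from it. The human LEF1 gene is known to have an internal promoter that gives a shorter protein without the beta-catenin binding part; which transcripts these cells made was not measured.

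The PLZF-transgenic list alone had a Lef1 peak 7.1 kb downstream of the 5′ boundary, from 131117225 to 131117492, with a score of 65.8, above 21.2% of its list. The nearest NKT peak was 40052 bp away.

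**Figure D2:**
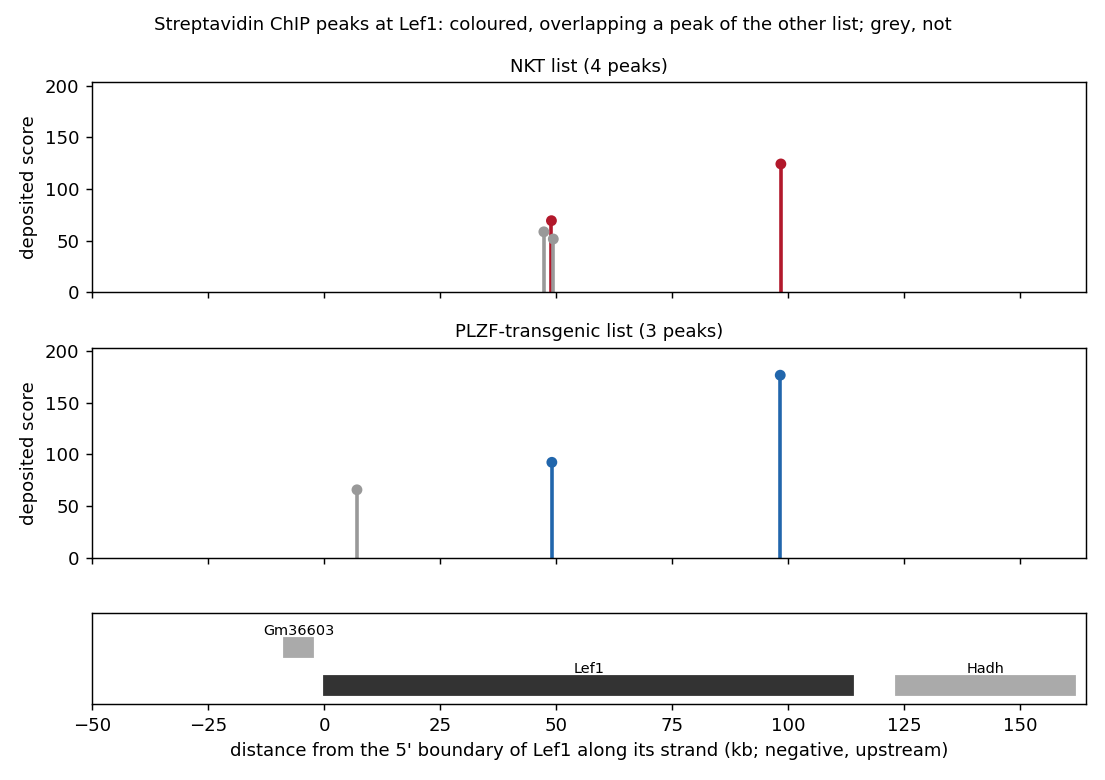
Peaks at Lef1 in the NKT list (top) and the PLZF-transgenic list (middle), by distance from the 5′ boundary of Lef1 in kb (negative, upstream) and deposited score, with gene bodies below. Coloured peaks overlap a peak of the other list and grey ones do not; all 4 NKT and 3 PLZF-transgenic peaks lie inside Lef1, and shared peaks stand about 49 and 98 kb into it.

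The 6 overlapping pairs were placed no closer than is usual for overlapping pairs of these lists. Their midpoints were between 40.5 and 135.5 bp apart, with a median of 78.75 bp, against a median of 63.5 bp over all 2603 pairs. In every one of the 6 pairs the overlap was more than 50% of each peak. The NKT peak lay wholly within the PLZF-transgenic one in 3 of 6 pairs, against 1671 of 2603. In width the PLZF-transgenic peak exceeded the NKT peak in 6 of 6 pairs, against 91.1% of 2603 overlapping pairs over the whole lists. Measured in bases, NKT peaks covered 2628 bp at Tcf7, of which 88.5% lay within PLZF-transgenic peaks. PLZF-transgenic peaks covered 4277 bp there, of which 54.4% lay within NKT peaks. At Lef1 the NKT peaks covered 1038 bp, with 53.1% in PLZF-transgenic peaks, and the PLZF-transgenic peaks covered 1149 bp, with 48.0% in NKT peaks.

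The genes differed from each other in where and how high their peaks were. At Tcf7, 3 of 5 NKT peaks and 3 of 8 PLZF-transgenic peaks lay inside the gene, and scores ran between 70.3 and 831 in the NKT list and between 58.2 and 1759.9 in the PLZF-transgenic list. At Lef1, scores ran between 51.5 and 124 in the NKT list and between 65.8 and 177 in the PLZF-transgenic list. The highest Lef1 score was thus below the scores of 4 Tcf7 peaks in the NKT list and of 3 in the PLZF-transgenic list. With 1 library per group, this difference between the genes was not tested.

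**Figure D3:**
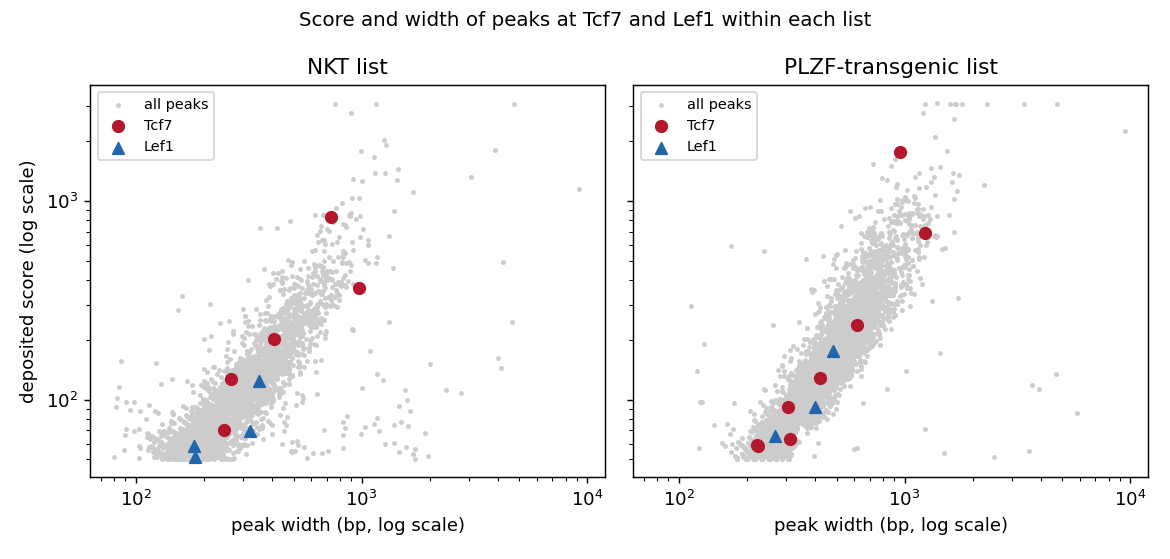
Deposited score against peak width in bp (both on log scales) for all peaks (grey), peaks at Tcf7 (circles) and peaks at Lef1 (triangles), in the NKT list (left) and the PLZF-transgenic list (right). Tcf7 peaks extend to scores of 831 in the NKT list and 1759.9 in the PLZF-transgenic list, and Lef1 peaks stay at or below 124 and 177.

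Of 21887 protein-coding genes, 26.3% had at least 1 NKT peak in a window of the same kind and 30.3% at least 1 PLZF-transgenic peak. Long genes have longer windows, and the median window was 117.2 kb. Per 100 kb of window, Tcf7 had 3.65 NKT and 5.85 PLZF-transgenic peaks, values that 1.05% and 0.27% of genes reached. Lef1 had 1.87 and 1.40, which 5.17% and 10.7% of genes reached. The Lef1 count of NKT peaks was 4 as deposited and 3 after peaks less than 500 bp apart were joined, and that of PLZF-transgenic peaks was 3 either way.

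**Figure D4:**
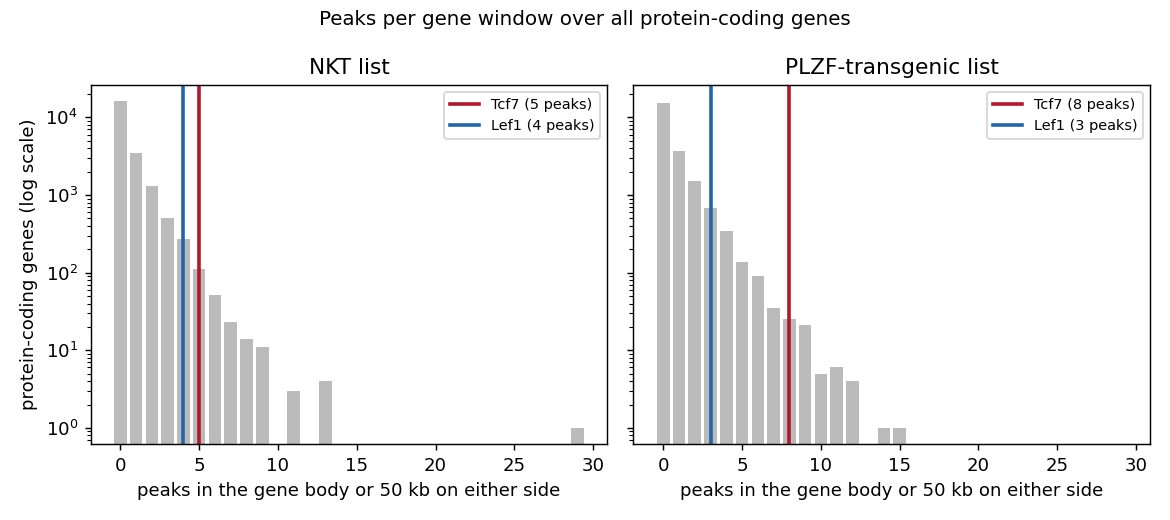
Number of protein-coding genes (log scale) by number of peaks in the gene body or 50 kb on either side, for the NKT list (left) and the PLZF-transgenic list (right). The lines mark Tcf7 at 5 NKT and 8 PLZF-transgenic peaks and Lef1 at 4 NKT and 3 PLZF-transgenic peaks, and most genes have 0.

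The limit of 50 kb left out a group of peaks beyond Gm30217. The outermost upstream peaks kept at Tcf7 lay 31.0 kb away in the NKT list and 35.3 kb in the PLZF-transgenic list. Just outside, 56.2 kb upstream, lay an NKT peak with a score of 118 and a PLZF-transgenic peak with a score of 460.0. Next to these, 57.9 kb upstream, lay an NKT peak with a score of 87.5 and, 58.0 kb upstream, a PLZF-transgenic peak with a score of 188. With no NKT counterpart, a PLZF-transgenic peak with a score of 76.4 lay 52.6 kb upstream. Around Lef1 the next peaks were farther off. The nearest NKT peak beyond the limit lay 83.1 kb downstream of the gene, with a score of 53.4, and the nearest PLZF-transgenic peak 83.8 kb upstream, with a score of 99.6. A shared site lay 95.9 kb upstream in the NKT list (score 104) and 96.1 kb upstream in the PLZF-transgenic list (score 229).

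The genes most like each member were found by the number of peaks and the highest score in the 2 lists, on a log2 scale, among genes whose windows did not overlap that of the member. Atp5h (distance 0.70), Kctd2 (0.72) and Abhd4 (0.75) were nearest to Tcf7. Atp5h had 6 NKT and 8 PLZF-transgenic peaks, with highest scores of 1268 and 2112. Kctd2 had 6 and 9 peaks and the same highest scores in both lists, so Atp5h and Kctd2 are not independent. Abhd4 had 4 and 5 peaks. Slfn2 (0.21), Hexim2 (0.28) and Stat4 (0.29) were nearest to Lef1, each with 4 NKT and 3 PLZF-transgenic peaks. The distance takes no account of window length for either member. The windows spanned 105.6 kb for Slfn2, 116.6 kb for Hexim2 and 220.1 kb for Stat4, against 214.1 kb for Lef1. Stat4, which encodes a transcription factor of interleukin 12 signalling, had highest scores of 139.5 and 149.7.

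The other TCF/LEF family genes had few peaks or none in the same kind of window, as is usual for a gene. Of all protein-coding genes, 26.3% had at least 1 NKT peak and 30.3% at least 1 PLZF-transgenic peak, and the median was 0 in each list. Tcf7l1 had 0 in both lists. Tcf7l2 had 0 NKT peaks and 1 PLZF-transgenic peak, inside the gene, with a score of 57.2. Both of their windows were longer than that of Lef1, at 262.7 kb for Tcf7l1 and 291.9 kb for Tcf7l2.

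Genes that TCF1 and LEF1 act with were grouped in lists chosen with earlier results of these data known. The shares of these lists are thus a description and support nothing. Over all 86 genes of the lists the median window was 133.3 kb, against 117.2 kb over all protein-coding genes. The shares were not adjusted for window length. Genes of co-repressors and inhibitors come first. Of 11 genes of TLE co-repressors and other TCF inhibitors, 6 had an NKT peak in the window (54.5%, against 26.3% of all protein-coding genes) and 8 a PLZF-transgenic peak (72.7%, against 30.3%). Ctnnbip1, which encodes an inhibitor of beta-catenin, had highest scores of 208 (NKT) and 324 (PLZF-transgenic), 48.5 kb away in both lists. The neighbouring genes Tle2, Tle5 and Tle6 shared an NKT peak with a score of 173, which lay inside Tle5, and so are not independent. Tle3 and the kinase gene Nlk had 0 NKT peaks. Their highest PLZF-transgenic scores were 53.0 for Tle3, 8.8 kb away, and 95.7 for Nlk, 30.9 kb away. Of 10 genes of beta-catenin and its co-activators, 3 had an NKT peak (30.0%, against 26.3%) and 7 a PLZF-transgenic peak (70.0%, against 30.3%). The gene of beta-catenin itself, Ctnnb1, named after its values were seen, had 0 in both. The chromatin remodelling ATPase gene Smarca4 had highest scores of 137 (NKT, 23.2 kb away) and 362 (PLZF-transgenic, inside the gene), at different sites. In the same order, Bcl9l, a beta-catenin adaptor gene, had 133 and 192, 21.4 kb away in both lists. The acetyltransferase gene Crebbp had 109.6 and 127, 3.5 kb and 3.4 kb away. Jup, which encodes plakoglobin, and the acetyltransferase gene Ep300 had 0 NKT peaks, and their highest PLZF-transgenic scores were 364 for Jup and 85.5 for Ep300.

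Upstream in the pathway, genes of the complex that degrades beta-catenin had a peak in 6 of 17 cases in the NKT list (35.3%, against 26.3% of all protein-coding genes) and in 9 of 17 in the PLZF-transgenic list (52.9%, against 30.3%). The kinase gene Gsk3b had 1 peak inside the gene in each list, with scores of 317 (NKT) and 436 (PLZF-transgenic), an order kept for the other genes here. Its relative Gsk3a had highest scores of 625 and 720.3, 30.2 kb away. Apc2 had 155 and 199, 46.7 kb away in both lists, and the phosphatase gene Ppp2ca 122 and 202, 22.6 kb away in both. Apc and Tnks had 0 NKT peaks and 1 PLZF-transgenic peak each. The scores were 73.7 for Apc, 8.9 kb away, and 58.7 for Tnks, 45.7 kb away. Of 22 Wnt receptor and Dishevelled genes, 5 had an NKT peak and 5 a PLZF-transgenic peak, 22.7% each, against 26.3% and 30.3% of all protein-coding genes. Rnf43, which encodes a ubiquitin ligase for Wnt receptors, had 11 NKT and 10 PLZF-transgenic peaks. Its highest scores were 495 and 1250.6, 15.4 kb and 15.7 kb away. Its relative Znrf3 had 148 inside the gene and 252 at a different site, 22.4 kb away. Dvl2 had 56.4 and 53.2, 9.4 kb and 4.9 kb away. Dvl1 had NKT peaks (highest 61.7, 35.1 kb away) and 0 PLZF-transgenic peaks. Lgr6 had 0 NKT peaks and 1 PLZF-transgenic peak (177, 27.8 kb away).

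Genes that TCF1 regulates or works with in T cells had the highest shares of these lists, 15 of 22 in the NKT list (68.2%, against 26.3% of all protein-coding genes) and 19 of 22 in the PLZF-transgenic list (86.4%, against 30.3%), all 15 being among the 19. The coreceptor gene Cd4 had highest scores of 1158 in the NKT list and 2245 in the PLZF-transgenic list, inside the gene in both. Cd8a had 446 and 1137 in the same order, at different sites, 3.7 kb and 17.1 kb away. T cell transgenes often carry Cd4 sequence, and whether the Cd4 peaks hold such DNA was not tested. Prdm1, which encodes BLIMP1, had 469 and 689, and Myb, a proto-oncogene that T cell development needs, 382 and 576. The E protein gene Tcf12 and the interleukin 7 receptor gene Il7r had 0 NKT peaks. Their highest PLZF-transgenic scores were 63.9 for Tcf12, inside the gene, and 94.3 for Il7r, 45.0 kb away. Many of these genes are active in thymocytes, and a link of peak number with expression was not tested.

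**Figure D5:**
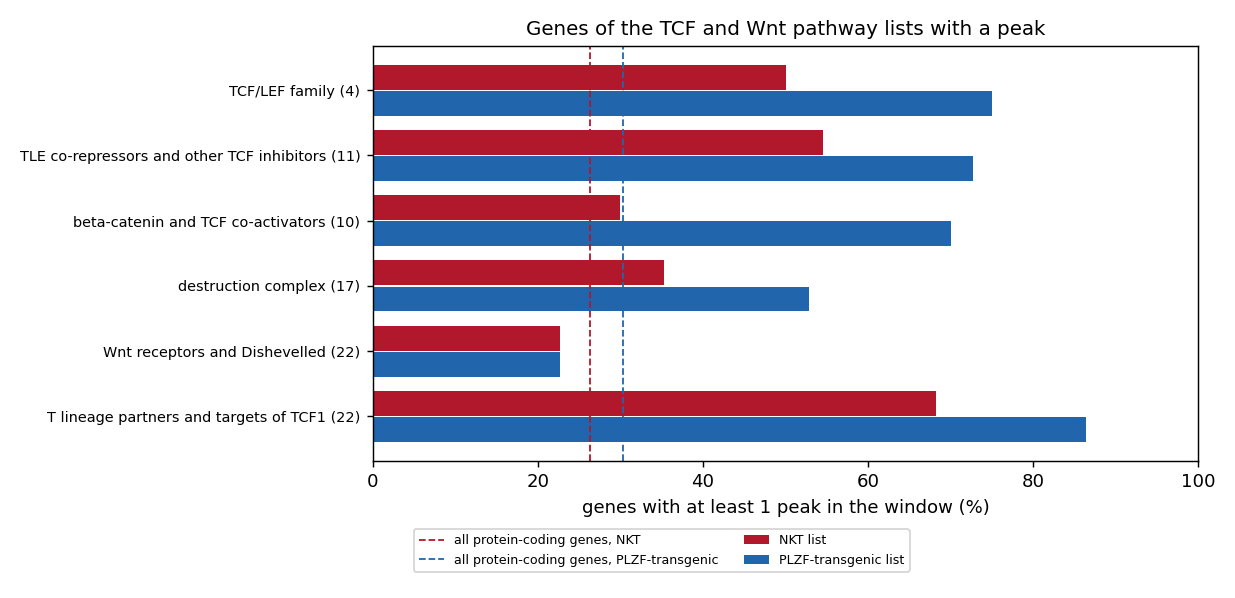
Share of genes in each pathway list with at least 1 peak in the gene body or 50 kb on either side, for the NKT list (upper bar) and the PLZF-transgenic list (lower bar), with the number of genes in brackets. Dashed lines mark all protein-coding genes at 26.3% (NKT) and 30.3% (PLZF-transgenic). Wnt receptor and Dishevelled genes are at 22.7% in both lists, and genes that TCF1 regulates or works with are the highest, with 15 of 22 and 19 of 22. The pathway lists were chosen with earlier results of these data known.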

How the data were processed

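Each of the 2 ChIP libraries had 1 peak list without a header, with chromosome, start, end, a name beginning with MACS and a score. The build mm10 and the tools Bowtie, HOMER and Picard are named, per the submitters' processing notes, with no version. The control used in peak calling and any pooling of reads are not stated there. The score is the value per peak that the authors deposited; what it measures is not stated in the file, and the lowest values were 50.02 (NKT) and 50.03 (PLZF-transgenic). The other deposited columns used are start and end in bases, and starts were raised by 1 to be 1-based.

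Peaks were placed by midpoint in windows of RefSeq genes (GRCm38.p6, 21887 nuclear protein-coding genes) with 50 kb on either side, in Python 3.11.15 with pandas 2.3.3. All 86 symbols of the pathway lists matched the gene table. Overlap of 1 bp counted as shared. No test was run, since each group had 1 library. The routines were tested on simulated data. Genes in the text were named by rule: both members, the TCF/LEF family, up to 4 genes per list with peaks in both libraries by NKT score, up to 2 with peaks in 1 library by score, genes in the windows, and 3 genes most like each member. Motifs were to be searched only in promoters under a peak; there were none, and the search of the promoters nearest to peaks was chosen after seeing the data. The members and lists were chosen with earlier results of these data known. Alternatives were other windows, overlap rules, joined peaks, nearest genes and the top 50% of each list by score.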

Additional observations from a re-analysis of the deposited data

How the results depend on the processing

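Of 50 recomputed counts, 37 stayed within 1.5 times the reported one. With the gene body only, peaks at Tcf7 numbered 3 in the NKT list and 3 in the PLZF-transgenic list, and with 20 kb on either side 3 and 4. All peaks in Gm30217 then fall outside, as does the PLZF-transgenic peak beyond the 3′ end of Tcf7, and with the gene body only also the one 14.2 kb upstream. With 100 kb on either side, Lef1 had 5 PLZF-transgenic peaks. When midpoints within 1 kb counted as shared, shared NKT peaks numbered 5 at Tcf7 and 3 at Lef1, against 4 and 2 as reported. Shared PLZF-transgenic peaks stayed at 4 and 2. With the top 50% of each list by score, Tcf7 had 4 PLZF-transgenic peaks, Lef1 had 1 in each list, and 1 was shared in each list. Pathway genes with a peak numbered 37 of 86 in the NKT list (43.0%, against 26.3% of all protein-coding genes) and 51 in the PLZF-transgenic list (59.3%, against 30.3%). With gene bodies only they numbered 19 (22.1%, against 7.18% of all protein-coding genes) and 25 (29.1%, against 8.37%). With the top 50% of the PLZF-transgenic list they numbered 33 (38.4%, against 18.2%). Depth is unknown, so whether a peak missing from a list reflects fewer reads was not tested. No paired analysis was possible because each group had 1 library and no test was run.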
